A study of Mus musculus with 24 samples.

Results

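The transcripts described here are 200 RNA isoforms of mouse cortical neurons that carry the annotation class retained_intron and that were higher after depolarization in young cultures, at 7 days in vitro (DIV7). Of 142552 transcripts in each table, 21843 were of that class in GENCODE release M21, and 11736 of these had a mean of at least 0.5 TPM (a level scaled by transcript length and library total) over the 4 DIV7 libraries. The 200 with the highest log2((mean TPM with KCl + 0.1)/(mean TPM at rest + 0.1)) were taken. They lie in 191 genes, 7 of which hold 2 of them and 1 of which, Leng8, holds 3. The members were thus chosen by their DIV7 TPM values, so their change at DIV7, and that of their host genes in the same libraries, is given as a description with no test. The DIV18 libraries played no part in the choice and were tested.

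Introns are normally cut out of a transcript while it is made or soon after, and a retained_intron transcript is one in which at least 1 intron stays in the RNA. Such RNAs are often held in the nucleus or degraded, and neurons are known to keep a store of them from which introns are removed when the cell becomes active. Depolarization also starts, within minutes, the transcription of immediate-early genes such as Fosb, Nr4a1 and Npas4, which encode transcription factors. Short-read libraries do not separate a finished RNA that keeps an intron from pre-mRNA that is not yet spliced: in these values the 2 cannot be told apart.

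All libraries came from primary cortical neurons of mouse embryos at embryonic day 16.5, in which, per the labels' protocols, the cortex of each embryo counted as 1 biological replicate. All cultures were silenced overnight with 1 µM tetrodotoxin, a sodium channel blocker, and 100 µM D-AP5, an NMDA receptor blocker, and were then left unstimulated or depolarized with 50 mM KCl for 30 min. The DIV7 cultures were wild type, received 0.1% DMSO, and gave 2 libraries at rest and 2 with KCl. At DIV18 one set of cultures had received a guide RNA with no target (NT; 2 libraries at rest and 2 with KCl). The others had a knockout of Smarcc2, a subunit of the BAF chromatin remodelling complex, together with vector (3 and 3), that knockout with an addback of WT Smarcc2 (2 and 3), with Smarcc2(S586E) at rest only (3), or with Smarcc2(S586A) with KCl only (2). Polyadenylated RNA was sequenced at DIV7, and rRNA-depleted total RNA at DIV18, so that age and library type cannot be told apart.

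The DIV7 libraries held 24536056 to 30135576 estimated counts and the DIV18 libraries 14510199 to 24024959. Summed Smarcc2 TPM was 50.7 to 61.5 in the NT libraries, 18.3 to 23.6 in the knockout with vector and 173 to 358 in the addbacks. All 9 neuron markers were at 1 TPM or more in every library, and their summed TPM was 2550 to 2890 at DIV7 and 1200 to 1740 at DIV18. The 5 astrocyte markers summed to 138 to 152 TPM at rest and 115 to 127 TPM with KCl at DIV7, and to 20.8 to 148 TPM at DIV18. The 6 microglia markers summed to at most 5.36 TPM in any library. Every library held both Xist, the RNA of the inactive X chromosome (24.01 to 143 TPM), and Y-linked Eif2s3y (2.66 to 23.97 TPM), which goes against 1 embryo per library, so that what a replicate is cannot be told from these files and p-values measure the spread between these samples.

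The sequences that tell these transcripts from spliced mRNA are the splice sites they read through. They are shown for the early-response members Fosb-204, Nr4a1-204, Npas4-202 and Gadd45g-202 and for Rheb-204, read 5′ to 3′ from the GENCODE M21 transcript sequences (GRCm38), with the intron's first or last 2 bases in capitals. Fosb-204 is 1 unbroken exon of 3629 bases (chr7:19306416-19310044, minus strand) that covers the first and second introns of the protein_coding transcript Fosb-201 and ends inside the third. It holds 2461 bases outside every protein_coding exon of Fosb.
Fosb-204, donor of the first intron: tcccagGTaagttttagatcgtaa
Fosb-204, acceptor of the first intron: gtgtgtatgtctcaccccgtAGgagtgc
Fosb-204, donor of the second intron: gagacaGTaagtatgaggcctcag
Fosb-204, acceptor of the second intron: atggtccttatctctgactcAGcttacc
Fosb-204, donor of the third intron: caggcgGTaaggaggagtctgggg
Nr4a1-204, donor read through: tcactgGTgagtggcagaaactag
Rheb-204, donor read through: ctgtggGTgagtggcggcccgggc

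Npas4-202 (chr19:4984355-4989971, minus strand; 3791 bases in 6 exons) keeps 2 introns of Npas4-201 and splices the others. The first of the 2 is shown whole because it is short enough to read: 187 bases, chr19:4987888-4988074, minus strand. Gadd45g-202 (chr13:51846744-51848224, plus strand) keeps 1 intron of 102 bases, chr13:51847454-51847555, also shown whole.
Npas4-202, kept intron: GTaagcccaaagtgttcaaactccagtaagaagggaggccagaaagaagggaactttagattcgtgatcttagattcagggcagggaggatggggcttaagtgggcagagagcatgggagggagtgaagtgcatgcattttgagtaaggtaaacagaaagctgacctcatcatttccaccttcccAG
Gadd45g-202, kept intron: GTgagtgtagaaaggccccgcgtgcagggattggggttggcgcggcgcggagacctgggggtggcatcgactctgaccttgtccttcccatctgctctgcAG
Both introns begin with GT and end with AG, as did 99 of the 101 introns that could be read whole inside the members.

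**Figure D1:**
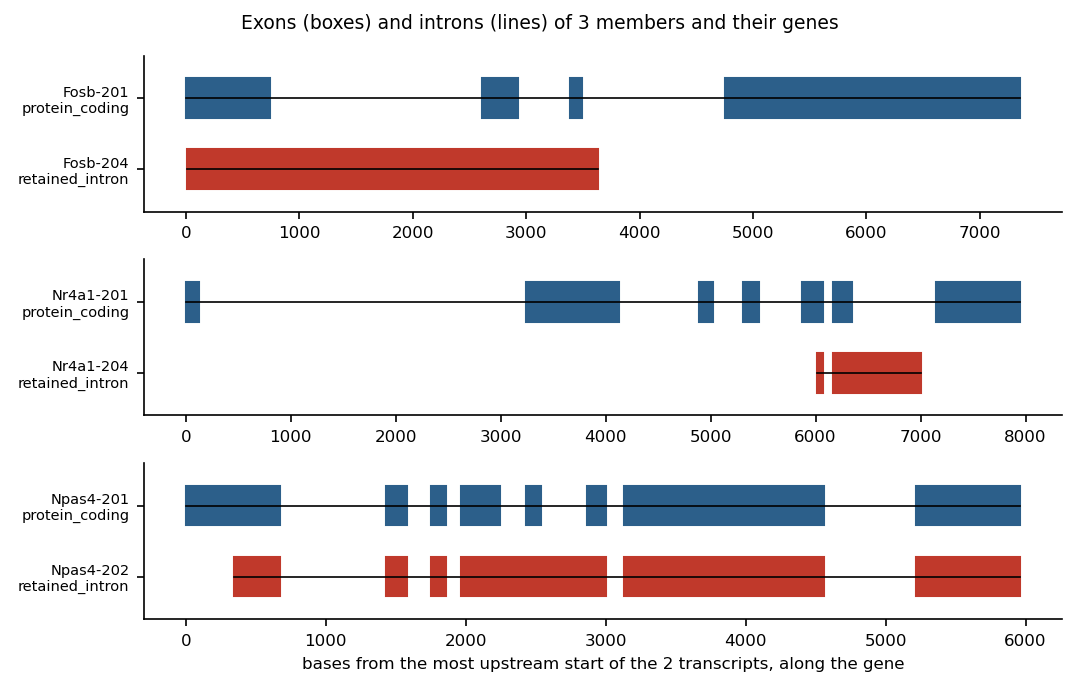
Exons (boxes) and introns (lines) of Fosb-204, Nr4a1-204 and Npas4-202 in red and of a protein_coding transcript of each gene in blue; the horizontal axis is bases along the gene from the more upstream of the 2 starts. Fosb-204 runs through 2 whole introns, Nr4a1-204 covers a stretch near the end of its gene and reads into the last intron, and Npas4-202 follows the coding transcript except where introns are kept.

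At DIV7 most of the class was lower with KCl. Retained_intron transcripts made up 6.27% and 6.18% of all TPM at rest and 4.52% and 4.55% with KCl, and the median log2 change of the other 11536 transcripts above the level minimum was −0.68. The 200 members together summed to 68.8 and 72.6 TPM at rest and to 758.8 and 779.5 TPM with KCl. Their log2 changes ran from 1.99 to 7.93 with a median of 2.88. In 172 of the 200, both KCl libraries lay above both resting libraries, against 11.2% of all 11736 transcripts that met the minimum, a count that the choice of members sets. The last members taken were Csnk2a2-204, Eloc-211 and Tlcd2-204, each at a log2 change of 1.99, and the first left out were Fmo5-204 at 1.99, Kank3-203 at 1.98 and Sik1-203 at 1.98.

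**Figure D2:**
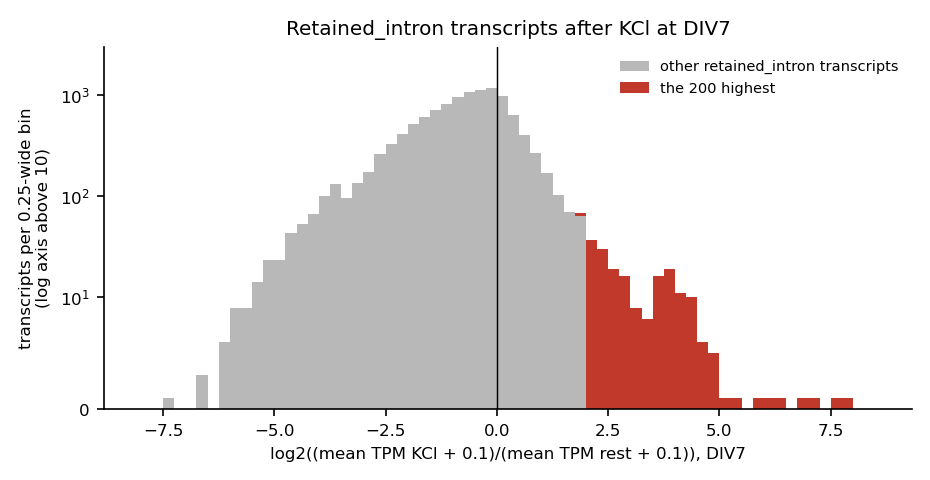
Number of retained_intron transcripts (vertical axis, logarithmic above 10) by log2 change of mean TPM, KCl over rest, at DIV7 (horizontal axis, 0.25-wide bins); the 200 highest are red and the other 11536 grey. Most of the distribution lies below 0, and the members form its upper end from 1.99 to 7.93.

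Many members rested on few reads. In 74 of the 200, the estimated counts of the 2 resting libraries together rounded to 0, and in 29 those of at least 1 KCl library did. The 2 KCl libraries together held fewer than 50 estimated counts for 141 members and at least 100 for 41. Among those 41, both KCl libraries were above both resting ones in 40, and the median log2 change was 2.56. Fau-207, in the gene of a ubiquitin-like and ribosomal fusion protein, shows the weak end: it was listed at 0 in both resting libraries and in KCl replicate 1 and was at 16.5 TPM in KCl replicate 2. Srgap3-201 had the same pattern, with 5.98 TPM in KCl replicate 2 alone.

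Of the transcription factor genes of the immediate-early response, 3 gave members with deep counts. Fosb-204 was at 0.112 and 0.0721 TPM at rest and at 22.5 and 22.3 TPM with KCl (6.2 and 3.5 estimated counts against 1333 and 1226). Nr4a1-204, from the gene of an orphan nuclear receptor, was at 0.447 and 0.119 TPM at rest and at 72.3 and 72.5 TPM with KCl, the highest mean level of any member. Npas4-202, from the gene of an activity-dependent transcription factor of neurons, was listed at 0 and at 0.438 TPM at rest and was at 13.6 and 14.7 TPM with KCl. In all 3 the 2 KCl libraries lay close together and far above both resting ones.

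A further 8 members came from the list of 59 early-response genes, of which 16 had a transcript above the level minimum. Gadd45g-202 and Gadd45b-202 belong to small stress-inducible proteins that act in growth arrest and DNA repair. Gadd45g-202 was at 2.48 and 1.75 TPM at rest and 21.1 and 23.6 TPM with KCl. Gadd45b-202 was at 0.213 and 1.23 TPM at rest and 8.24 and 6.12 TPM with KCl. Dusp1-203, from the gene of a phosphatase that switches off MAP kinases, was at 0.345 and 0.719 TPM at rest and 5.27 and 4.72 TPM with KCl. The remaining 5, Rgs2-203, Plk2-205, Sik1-204, Fbxo33-202 and Arl5b-205, had log2 changes of 2.20 to 3.12. Over all 23 transcripts of the list above the minimum, 22 were higher with KCl and the median log2 change was 1.98, beside −0.66 over all 11736. The list is of genes known to answer depolarization and was chosen with earlier results of these data known.

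The other lists are given beside the whole class, in which 1.7% of the 11736 transcripts were members and 75.4% were lower with KCl. The only late-response transcript above the minimum, Pcsk1-202, from the gene of a prohormone convertase, was a member: it was listed at 0 in both resting libraries and was at 1.54 and 1.02 TPM with KCl. Of 252 transcripts of splicing factors and their kinases, 192 (76.2%) were lower with KCl, the median log2 change was −0.88, and 2 (0.794%) were members. Those were Thoc2-214, of an mRNA export complex, at 0 and 0.455 TPM at rest and 5.88 and 4.88 TPM with KCl, and Srrm1-212, of a splicing coactivator, at 0.488 and 0.268 TPM at rest and 2.07 and 2.46 TPM with KCl. Of 45 transcripts of BAF-type complex subunits, 39 (86.7%) were lower and 1 (2.22%) was a member, Brd9-202, whose resting libraries differed widely at 0.0984 and 2.23 TPM and whose KCl libraries were at 5.98 and 5.19 TPM. Of 87 transcripts of glutamate receptor, channel and synaptic genes, 57 (65.5%) were lower and 0 were members.

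The protein_coding transcripts of the host genes set a few members, whose genes were also higher with KCl, apart from many whose genes stood near their resting level. Of 196 members with a protein_coding partner, 28 had a summed protein_coding log2 change of at least 1 and 168 a smaller one. The median over the 196 was 0.09, beside 0.01 for the hosts of the other transcripts. The protein_coding level of Fosb went from 0.977 and 0.644 TPM to 210.5 and 233.2 TPM, a log2 change of 7.93, beside 6.87 for Fosb-204. The 0.1 TPM added to each mean is close to the resting level of Fosb-204 and lowers its log2 change more than the coding one. Fosb-204 held 10.3% and 10.1% of the 2 summed levels at rest and 9.66% and 8.74% with KCl. For Nr4a1 the coding log2 change was 5.25 and the member's 7.57, so that the member's share went from 3.81% and 1.05% to 15.1% and 13.8%. Npas4-202 and its coding partner changed by 5.48 and 5.06.

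**Figure D3:**
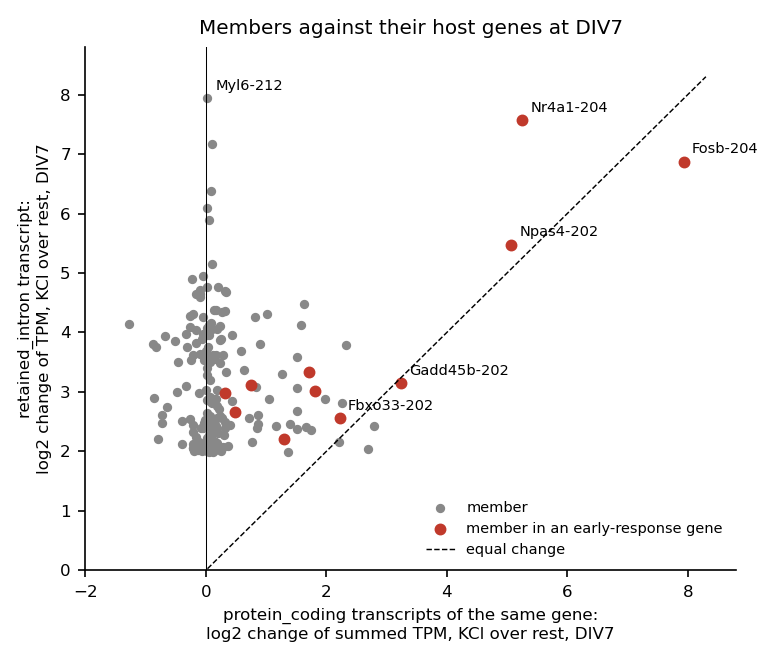
Log2 change of TPM, KCl over rest, at DIV7 for 196 members (vertical axis) and for the summed protein_coding transcripts of the same gene (horizontal axis); red points are members in early-response genes and the dashed line marks equal change. Most points stand near 0 on the horizontal axis, Npas4-202, Gadd45b-202 and Fbxo33-202 lie near the dashed line, Fosb-204 lies below it and Nr4a1-204 above it.

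The members with the widest gap to their host were Myl6-212, Hmgn3-204, Fau-207, Nop56-213 and Ptov1-211, all from genes with a high coding level. Myl6-212, from the gene of a myosin light chain, was listed at 0 in both resting libraries and was at 21.2 and 27.5 TPM with KCl, at least 139.6-fold higher when 3 counts are allowed over the 2 resting libraries. The protein_coding transcripts of Myl6 stood at 727 and 715 TPM at rest and 731 and 728 TPM with KCl. Nop56-213, from the gene of a nucleolar protein of snoRNA particles, was at 0 in both resting libraries and at 5.78 and 7.59 TPM with KCl, at least 66.2-fold higher. Ptov1-211 was likewise at 0 at rest and at 4.66 and 7.00 TPM with KCl, at least 37.5-fold higher, while the coding log2 change was 0.05. Hmgn3-204, of a nucleosome-binding protein, was at 0 at rest and at 14.3 TPM in both KCl libraries, at least 11.97-fold higher, but none of its 256 bases lies outside the coding exons of Hmgn3. Fau-207 likewise has no base outside the coding exons of Fau. Drap1-208, of a transcriptional corepressor and among the 10 highest members, was at 0 at rest and at 2.11 and 4.80 TPM with KCl, at least 11.7-fold higher.

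Other members were above 0 in all 4 libraries. Nop53-202, from the gene of a ribosome biogenesis factor, was at 4.46 and 3.03 TPM at rest and 27.2 and 37.6 TPM with KCl, and it held 27.5% and 21.2% of the summed level at rest against 58.1% and 63.5% with KCl. Rps16-203, of a small-subunit ribosomal protein, was at 4.84 and 4.33 TPM at rest and 53.8 and 45.0 TPM with KCl; ribosomal protein genes have near-identical copies, and how reads were split among them was not tested for Rps16-203 or Fau-207. The longest member, Leng8-204 (5599 bases), was at 1.81 and 2.40 TPM at rest and 12.2 and 13.4 TPM with KCl. Leng8-208 was at 4.30 and 4.10 TPM at rest and 20.7 and 18.5 TPM with KCl, and Leng8-210 was at 0.533 and 0.283 TPM at rest and 3.63 and 3.31 TPM with KCl. The coding log2 change of Leng8 was 0.10.

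Most other retained_intron transcripts of the same genes were lower with KCl. In 129 member genes, 369 further retained_intron transcripts met the level minimum, and 142 of them were higher and 227 (61.5%) lower with KCl, beside 75.4% lower over all 11736. Their median log2 change was −0.30, beside −0.66 over all 11736.

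The bases that tell a member from coding transcripts were few. A median of 22.4% of a member's length, 151.5 bases, lay outside the protein_coding exons of its gene, and 32 members had fewer than 50 such bases, so that few reads can tell them from coding transcripts. Of the 196 with a coding partner, 189 read through at least 1 coding splice site, with 154 of 155 donors beginning GT and 167 of 167 acceptors ending AG. A whole intron lay inside 35.5% of members and 37.0% of the others; the shortest such intron had a median length of 110 and 171 bases. Members were shorter, with a median of 603.5 against 817 bases, and their median GC content was 53.4% against 51.1%. They began within 100 bases of the gene's start in 17.5% against 23.7%. These differences were not tested.

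The promoters of the member genes are shown for the 3 transcription factor genes because their members moved together. RefSeq promoters (GRCm38.p6), windows of 300 bases around the gene's start, were found for 153 member genes (193 promoters), and were searched on both strands for TGACG, the core of the site that CREB-type factors bind, for the full site TGACGTCA, which contains it, and for the CArG box that serum response factor binds. TGACG was in 37.8% of the 193 and in 20.8% of all 32851 promoters, TGACGTCA in 7.25% and 1.79%, and the CArG box in 1.55% and 1.63%. The 32851 promoters, of 27025 genes, were not limited to genes with a transcript above the level minimum, which every member gene has. No share is given here for the other genes above that minimum, and the differences were not tested. These are descriptions of letters, not of bound sites. Capitals below mark each TGACG or its reverse complement CGTCA, of which Fosb (chr7:19309996-19310295, minus strand) has 1, Nr4a1 (chr15:101266596-101266895, plus strand) 4 and Npas4 (chr19:4989922-4990221, minus strand) 2.
Fosb promoter: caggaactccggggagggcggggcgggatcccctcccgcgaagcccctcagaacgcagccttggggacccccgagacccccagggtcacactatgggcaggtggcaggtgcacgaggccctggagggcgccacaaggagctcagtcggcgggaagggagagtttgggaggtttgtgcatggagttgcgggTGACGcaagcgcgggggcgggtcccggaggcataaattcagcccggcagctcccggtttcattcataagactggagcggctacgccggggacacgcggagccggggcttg
Nr4a1 promoter: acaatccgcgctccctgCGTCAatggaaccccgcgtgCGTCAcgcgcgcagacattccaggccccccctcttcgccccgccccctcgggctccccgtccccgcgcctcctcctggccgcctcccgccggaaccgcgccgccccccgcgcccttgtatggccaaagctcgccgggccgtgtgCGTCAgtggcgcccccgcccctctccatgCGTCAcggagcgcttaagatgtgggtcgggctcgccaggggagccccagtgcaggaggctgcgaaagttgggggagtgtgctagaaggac
Npas4 promoter: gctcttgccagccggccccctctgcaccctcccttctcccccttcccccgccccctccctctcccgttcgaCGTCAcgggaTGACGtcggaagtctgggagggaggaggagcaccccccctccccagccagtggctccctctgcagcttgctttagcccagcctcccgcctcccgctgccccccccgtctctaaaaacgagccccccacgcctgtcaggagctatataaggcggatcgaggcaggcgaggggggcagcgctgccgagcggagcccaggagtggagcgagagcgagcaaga

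At DIV18 3 members, Fosb-204, Nr4a1-204 and Npas4-202, were called higher with KCl by edgeR in the mean of NT, vector and WT. The median of the set stood near 0. Averaged over NT, vector and WT, the median log2 change of TPM over all 200 was 0.29, with 138 higher and 55 lower, beside 0.15 over the other 11536, of which 63.1% were higher. Over the 28 members whose host had a DIV7 log2 change of at least 1 the DIV18 median was 0.26, with 19 higher, and over the 168 others with a host it was 0.29, with 116 higher. Per construct the median was 0.00 in NT, 0.11 in the knockout with vector and 0.48 with WT, beside 0.00, 0.09 and 0.35 over the other 11536. The members summed to 161.1 to 232.6 TPM in the resting libraries and 206.9 to 295.4 TPM with KCl, and 75 to 107 of the 200 were listed at 0 in any 1 library.

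**Figure D4:**
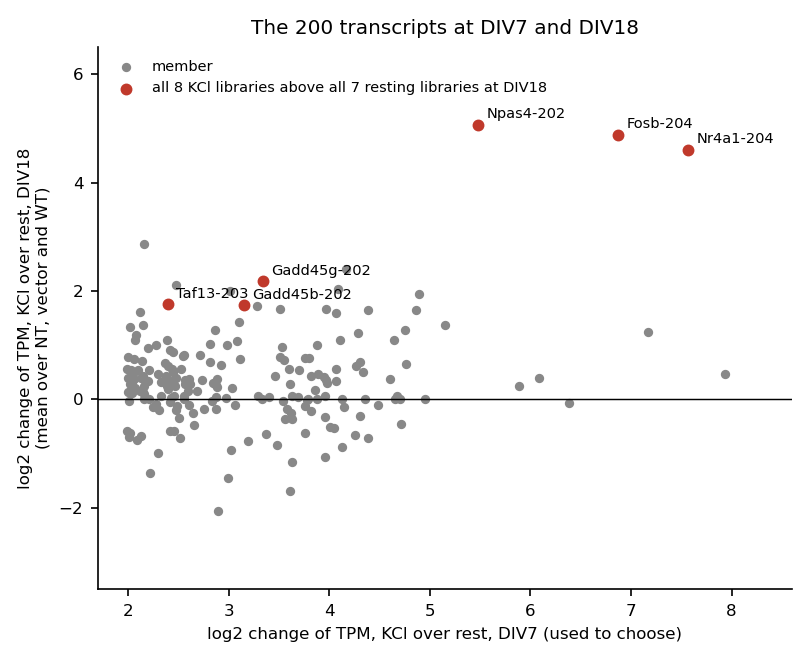
Log2 change of TPM, KCl over rest, for the 200 members at DIV7 (horizontal axis, the values that chose them) and at DIV18 (vertical axis, mean over NT, vector and WT); red points have all 8 KCl libraries above all 7 resting libraries at DIV18. Npas4-202, Fosb-204 and Nr4a1-204 stand at 4.61 to 5.07 on the vertical axis, and most members lie near 0.

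With edgeR's quasi-likelihood test over 59803 transcripts, 87 of the 200 members passed the low-count filter. In the mean of the 3 constructs, 3 members were higher with KCl at an adjusted p under 0.05, against 0.0418% of all transcripts, and none was lower. They were Fosb-204 (log2 difference 5.07, SE 0.305, adjusted p = 3.76e-06), Nr4a1-204 (7.12, SE 0.789, adjusted p = 0.00259) and Npas4-202 (6.53, SE 0.833, adjusted p = 0.00538), all by edgeR. The resting counts of Nr4a1-204 summed to 2.30 over 7 libraries. Its fitted difference, and the SE derived from that difference, depend on the prior count. That of Npas4-202 also rests on few resting counts, 31.6 over 7 libraries: it was 8.29 without NT rest replicate 1, 8.11 without vector rest replicate 2 and 8.34 without WT rest replicate 2. With the replicate number as a block, Fosb-204 stayed called (edgeR adjusted p = 0.00238), and Nr4a1-204 (adjusted p = 0.349) and Npas4-202 (adjusted p = 0.46) did not. In the fit without that block, 1 coding transcript of each of the 3 genes rose too: Fosb-201 by 2.95 (edgeR adjusted p = 2.68e-04), Nr4a1-203 by 6.28 (adjusted p = 0.00408) and Npas4-201 by 4.66 (adjusted p = 0.0462) on the log2 scale. The other coding transcripts of these genes that were tested did not pass, among them Nr4a1-201 (1.95, edgeR adjusted p = 0.0844). At an unadjusted p under 0.05, 14 of the 87 tested members were higher, against 3.61% of all transcripts, and 1 was lower, against 2.86%.

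Fosb-204 was the only member called by edgeR within a single construct. It was at 0.858 and 0.411 TPM in the resting NT libraries and at 18.9 and 6.68 TPM with KCl. In the knockout with vector it was at 0.227, 0.325 and 0.370 TPM at rest and at 18.2, 15.7 and 12.6 TPM with KCl. With WT it was at 0.290 and 0.392 TPM at rest and at 23.2, 16.6 and 10.4 TPM with KCl. The edgeR log2 difference was 4.33 in NT (adjusted p = 0.0475, against 0.00167% of transcripts called higher), 5.55 with vector (adjusted p = 4.25e-04, against 0.015%) and 5.33 with WT (adjusted p = 0.00534, against 0.00334%). At an unadjusted p under 0.05, 7 of the 87 tested members were higher and 1 lower in NT (against 1.84% and 1.87% of all transcripts). Of the same 87, 12 were higher and 3 lower with vector (3.19% and 2.99%), and 10 and 2 with WT (2.39% and 1.65%). The NT call of Fosb-204 was lost without NT rest replicate 2 and the WT call without either resting WT library.

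Nr4a1-204 and Npas4-202 were near absent at rest in these constructs. Nr4a1-204 was listed at 0 in 5 of the 7 resting libraries and at no more than 0.0669 TPM in the others, and was at 0.916 to 4.58 TPM with KCl, with a median of 2.85. Npas4-202 was at 0 to 0.116 TPM at rest and 1.55 to 10.00 TPM with KCl, with a median of 5.53. Neither set of KCl values overlapped its resting values. In the Smarcc2(S586E) libraries at rest Nr4a1-204 was at 0.168, 0.436 and 0.128 TPM, above the other resting libraries, and in the Smarcc2(S586A) libraries with KCl it was at 1.88 and 3.02 TPM.

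Without regard to a fitted model, 6 of the 200 members had all 8 KCl libraries above all 7 resting libraries at DIV18, against 0.23% of the 11736 transcripts. Besides the 3 above they were Gadd45g-202, Gadd45b-202 and Taf13-203, of which the last was chosen for mention after its values were seen. Gadd45g-202 had a median of 0.581 TPM at rest and 1.90 TPM with KCl (edgeR log2 difference 2.28, adjusted p = 0.222). Gadd45b-202 had a median of 0.324 TPM at rest and 1.56 TPM with KCl (1.75, edgeR adjusted p = 0.178). DESeq2 called both (adjusted p = 4.66e-05 and 0.00282), and without WT rest replicate 1 the edgeR difference of Gadd45g-202 was 3.87 (adjusted p = 0.0255). Taf13-203, of a subunit of the general transcription factor TFIID, was at 0 in 6 resting libraries and at 0.147 to 0.930 TPM with KCl, on 17.6 estimated counts in all. With the S586E and S586A libraries added, 5 members kept all 10 KCl libraries above all 10 resting ones, against 0.102%, and Gadd45b-202 did not.

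Among the members that did not pass the edgeR test at DIV18 were Dusp1-203, Rheb-204 and Zfp507-205, at the low levels given here. Dusp1-203 had a median of 0.775 TPM at rest and 3.27 TPM with KCl, with 1 overlap between the groups (edgeR log2 difference 2.00, SE 0.358, adjusted p = 0.0777). Rheb-204, which covers 2606 bases of Rheb, a small GTPase that activates mTORC1, and of which 83.7% lies outside coding exons, had a median of 0.332 TPM at rest and 1.08 TPM with KCl (1.43, SE 0.331, edgeR adjusted p = 0.254). Zfp507-205, of a zinc finger protein, went the other way, with a median of 0.548 TPM at rest and 0.114 TPM with KCl (−2.21, SE 0.459, edgeR adjusted p = 0.176). DESeq2 called all 3 of these members, and edgeR called Dusp1-203 without WT KCl replicate 3 (adjusted p = 0.0334).

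Of the 5 members with the widest gap to their host at DIV7, none was called at DIV18. Myl6-212 had a median of 1.495 TPM at rest and 2.38 TPM with KCl, with overlapping ranges of 0.295 to 5.53 and 0.581 to 5.47 TPM (edgeR log2 difference 0.35, SE 0.583, adjusted p = 1.0). The edgeR log2 difference was 1.39 (SE 1.22, adjusted p = 0.955) for Nop56-213, −0.01 (adjusted p = 1.0) for Ptov1-211 and −0.16 (SE 0.934, adjusted p = 1.0) for Fau-207. Hmgn3-204 had too few counts for that fit and had a median of 0.357 TPM at rest and 1.46 TPM with KCl. Among other members described above, Rps16-203 was at 74.4 to 106.9 TPM at rest and 75.2 to 116.3 TPM with KCl, and its edgeR log2 difference was −0.10 (SE 0.0882, adjusted p = 0.960). Srgap3-201, listed at 0 in 3 of the 4 DIV7 libraries, was at 5.78 to 13.0 TPM at rest and 7.22 to 10.7 TPM with KCl. Nop53-202 had a median of 0.460 TPM at rest and 1.02 TPM with KCl, with an edgeR log2 difference of 1.16 (SE 0.393, adjusted p = 0.629).

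**Figure D5:**
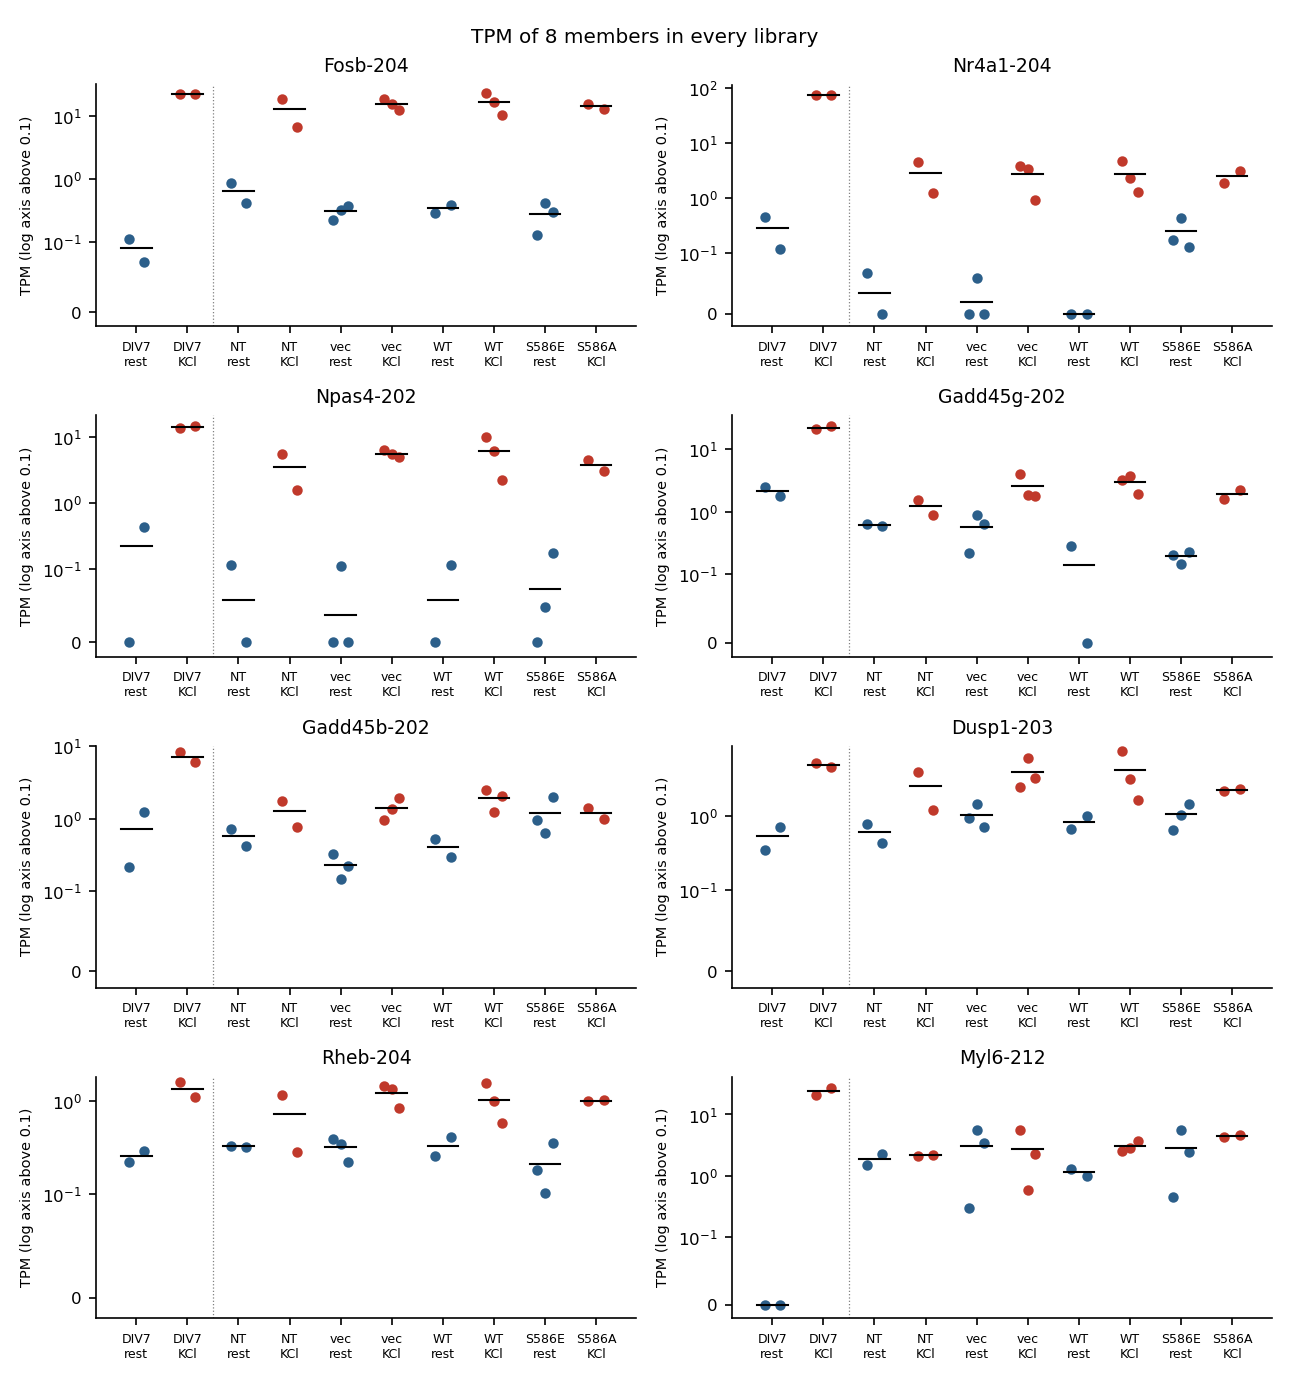
TPM (logarithmic axis above 0.1) of 8 members in each of the 24 libraries, resting in blue and KCl in red, with black bars at group means and a dotted line between DIV7 and DIV18. Fosb-204, Nr4a1-204 and Npas4-202 separate rest from KCl at both ages, and Myl6-212 separates them at DIV7 alone.

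Whether a member rose beyond its host was tested on the log2 ratio of the member's TPM to the summed protein_coding TPM of the same gene, with 0.1 added to both, by limma over 4153 retained_intron transcripts, 50 of them members. Only Fosb-204 was called, against 0.0722% of transcripts called higher: its ratio rose by 1.93 (SE 0.204, limma adjusted p = 4.05e-04), and by 1.08 with a pseudocount of 1, and its median share of the summed level was 21.6% in the 7 resting libraries and 54.9% in the 8 KCl libraries. With the replicate number as a block it was not called (limma adjusted p = 0.236). The ratio of Gadd45g-202 differed by 1.69 (SE 0.345, limma adjusted p = 0.0769; 0.56 with a pseudocount of 1, and 2.04 and called without WT rest replicate 1, adjusted p = 0.0135) and that of Nr4a1-204 by 1.48 (SE 0.365, limma adjusted p = 0.126). Nr4a1-204 stood below the added 0.1 TPM in all 7 resting libraries, so its value does not measure a change beyond its host. The ratio of Kctd3-209 differed by 2.77 (SE 0.644, limma adjusted p = 0.114), and by 3.48 without NT rest replicate 1. That of Gadd45b-202 differed by 1.39 (SE 0.328, limma adjusted p = 0.114). The ratio of Nop53-202 differed by 1.15 (SE 0.416, limma adjusted p = 0.390) and that of Hmgn3-204 by 1.37 (SE 0.718, limma adjusted p = 0.609). At an unadjusted p under 0.05, 10 of the 50 members were higher, against 5.13% of all those tested, and none was lower. The 10 include Nr4a1-204 and Npas4-202, which were near 0 at rest, so that their resting ratios lean on the added 0.1 TPM. At DIV7 the share held by Fosb-204 was 8.74% to 10.3% over the 4 libraries, and the difference between the ages was not tested.

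No member was called by edgeR in the comparisons between Smarcc2 constructs. Against NT, the knockout with vector had 0 of the 87 tested members called by edgeR at rest, against 0.333% of transcripts. At an unadjusted p under 0.05 there were 9 (10.3% of the 87, beside 8.92% of all transcripts). There DESeq2 called 3 members, namely Fbxo33-202, Glyr1-204 and Thoc2-214, among 1459 transcripts called in all. With KCl edgeR again called 0, against 0.0853%, with 3 at an unadjusted p under 0.05 (3.45%, beside 7.75% of all). DESeq2 called 0 members there and 918 transcripts in all. For S586E against WT at rest edgeR called 0, against 0.0%, with 4 at an unadjusted p under 0.05 (4.6%, beside 6.04% of all). DESeq2 called 0 members there and 362 transcripts in all. For S586A against WT with KCl edgeR called 0, against 0.00167%, with 7 at an unadjusted p under 0.05 (8.05%, beside 5.38% of all). DESeq2 called 0 members there and 191 transcripts in all. The difference of the KCl change between any 2 of NT, vector and WT, tested in the same edgeR fit after the data were seen, called 0 members, with 4 (4.6%) at an unadjusted p under 0.05 in each of the 3 differences. Over all transcripts that share was 5.59% for vector against NT, 4.15% for WT against vector and 3.66% for WT against NT.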

How the data were processed

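RNA was sequenced in 24 libraries and, per the submitters' processing notes, reads were handled with FastQC, cutadapt and kallisto; versions, index and strand setting are not given in the sources used here. Per the file headers, the authors deposited an estimated count, a TPM and an effective length per transcript. Identifiers were matched to GENCODE M21 (141429 of 142552, 99.2%); the other 1123 held at most 0.467% of counts in any library and were left out. Rounded estimated counts of the 20 DIV18 libraries were fitted together with edgeR 4.0.16 (quasi-likelihood test, TMM, filterByExpr, Benjamini-Hochberg adjustment; R 4.3.3); DESeq2 1.42.0 was an alternative. The ratio to coding TPM was tested with limma 3.58.1 at a mean of at least 0.5 TPM. All tests are two-sided. Calls used an adjusted p under 0.05. The tests were tried on simulated data with a true log2 change of 2. There edgeR recovered 22.0% of the changed transcripts in NT, 31.2% with vector, 25.3% with WT and 46.8% in the mean. In the mean, 5.43% of its calls were false. A member not called at DIV18 may thus still have changed by that much. The ratio test was tried only on values drawn with 1 equal spread, where it recovered 100.0%.

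The members and gene lists were chosen with earlier results of these data known. Named members were the 10 highest by the rule, the 5 highest by level, the 5 with the widest gap to a host of at least 1 TPM, those in the lists, those called at DIV18, the 3 on either side of the limit, and genes with 3 members; Taf13-203, Rheb-204, Zfp507-205, Glyr1-204 were added after their values were seen. Replicates are separate samples in the labels, and pairs within a group differed beyond sampling noise. Standard errors do not include the uncertainty of assigning reads between isoforms. Same-numbered libraries were not treated as pairs in the main fit. Their deviations over all tested transcripts showed next to no correlation, which does not exclude shared cultures. Y-linked Eif2s3y and Ddx3y were lower in replicate 1 than in replicate 2 in every DIV18 group. Calls that the replicate block removes therefore hold only if the numbers mark no pairing.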

Additional observations from a re-analysis of the deposited data

How the results depend on the processing

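Fosb-204, Nr4a1-204 and Npas4-202 stayed called in the mean of the 3 constructs with other size factors, no count filter, a fit of only the groups compared and every library left out; leaving out 1 library gave 3 to 5 calls, the 5 without WT rest replicate 1. DESeq2 called 9 members there, 3 in NT, 4 with vector, 4 with WT and 3 for the knockout at rest. Over all transcripts it called 451, 156, 286, 170 and 1459 in the same comparisons, in that order. A fit of only the groups compared called 0 in NT and 0 with WT. Leaving out 1 library gave 0 to 1 calls in NT (0 without NT rest replicate 2), 1 to 1 with vector, 0 to 1 with WT (0 without WT rest replicate 1 or 2), 0 for each comparison between constructs, and 1 to 3 for the ratio (2 without NT rest replicate 1, 3 without WT rest replicate 1). With the replicate block the calls were 1 in the mean, 0 in NT, 1 with vector, 0 with WT and 0 for the ratio. Correlations of same-numbered libraries' deviations ran from −0.007 to 0.057, and the main fit did not treat the numbers as pairs. Such correlations do not exclude pairing. Eif2s3y and Ddx3y were lower in replicate 1 than in replicate 2 in all 8 DIV18 groups. Uty and Kdm5d were too, except Uty in vector with KCl and Kdm5d in NT with KCl. Xist was higher in replicate 1, except with WT at rest. Whether a number marks a shared culture was not tested. The median DIV18 change of 0.29 was 0.064 with a pseudocount of 1 and 0.20 to 0.35 with 1 library left out. Why these differ was not tested. Of the 200 members, 146 were kept with a pseudocount of 1, 94 with a minimum of 1 TPM, 147 with TMM-scaled counts, and 91 to 138 with 1 DIV7 library left out. Only 87 of the 200 members had enough counts to enter the DIV18 test, which limits what could be called.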
